A study of Phaseolus vulgaris with 21 samples.

Results

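The genes described here act on the pectin, cellulose and protein parts of the plant cell wall, and were followed in nectaries and leaves of common bean (Phaseolus vulgaris). The rule that picks them uses annotation and no measured value, although it was set with earlier results of these data known. Each is a row of the deposited expression table whose first Arabidopsis description names pectin, pectate, expansin, cellulose synthase, polygalacturonase, arabinogalactan or extensin, and a polygalacturonase inhibitor was left out by the same rule. The rule gave 33 genes of 6359 rows. They comprised 4 pectin methylesterases, 1 member of the invertase and pectin methylesterase inhibitor family, 5 pectin acetylesterases, 2 pectate lyases, 7 polygalacturonases, 5 expansins, 1 cellulose synthase or synthase-like gene, 2 fasciclin-like arabinogalactan proteins, 4 genes with extensin in their name and 2 others.

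Pectin is laid down in the wall with methyl and acetyl groups on its acidic backbone. Pectin methylesterases and acetylesterases remove those groups, a family of small inhibitor proteins blocks methylesterases or invertases, and polygalacturonases and pectate lyases cut the backbone. Expansins loosen the wall without cutting it, cellulose synthases spin the load-bearing fibres, and arabinogalactan proteins and extensins are glycoproteins of the wall and cell surface. In a nectary, sugar solution leaves the secretory cells and crosses their walls on its way to the surface.

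RNA was sequenced from 7 tissues of cultivar Blue Lake 274 with 3 libraries each, the labels name no treatment, and the nectaries were cut out by hand. The tissues were leaf, extrafloral nectaries (EFN) under terminal trifoliate leaves (leaf EFN), extrafloral nectaries of the stem under lateral trifoliate leaves (stem EFN), and floral nectaries at 4 stages. Floral stages were named pre1 (24 h ahead of anthesis), pre2 (12 h ahead), secretory (open flower, 3 h after dawn) and post (12 h later than secretory). Plants grew under 16 h of light and 8 h of dark a day at 23 °C. Consecutive stages also differ in time of day, so a change between them cannot be told apart from one with time of day. The labels do not say whether libraries of a tissue came from separate plants, so p-values measure the spread between these libraries, which may be technical. In bulk tissue, fewer cells of a type and less RNA per cell cannot be told apart.

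Each row of the table is a soybean transcript to which bean reads were assigned, and the values are read counts normalized by the authors and given as whole numbers. Close gene copies may share reads, and 8 of the 33 genes share their best Arabidopsis match with another of them. Values are not corrected for transcript length, so genes were not ranked against each other by level. The values of a library summed to between 2616502 and 4270943, and the number of reads behind them was not estimated. A fold change is the difference in mean log2(value + 1) between tissues. It was tested with limma in 1 model over all 21 libraries, with Benjamini-Hochberg adjustment over the 6351 rows with a mean of at least 1, and an adjusted p under 0.05 counts as passing. All 33 genes were tested, and 29 of them had no library at 0.

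The tissues also differed in markers of other cell types. The carpel identity genes matching AG and SHP1 summed to 0 to 13 in every leaf and extrafloral library and to 1512 to 4953 in every floral library. The epidermal lipid transfer gene LTP1 held 6 to 203 in leaf and extrafloral libraries and 2078 to 6668 in floral ones. Leaf mesophyll genes (RBCS1A and LHCB1.2) summed to 28482 to 109634 in leaf, 5996 to 30482 in extrafloral and 21 to 71 in floral libraries, while the phloem sucrose carrier gene SUT1 held 710 to 1386 throughout. Pollen and guard cell lists matched 0 rows. The nectary regulator matching CRC was at 0 in all leaf and extrafloral libraries and between 387 and 8113 in floral ones. The MYB24-like gene LOC100816972 held 1 in stem EFN library 1 but 13 and 21 in libraries 2 and 3. The part of these differences in the results below was not tested.

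As a group, the 33 genes took up 0.145% ± 0.0088 of library values in leaf (SD, n = 3), 0.235% ± 0.06 in leaf EFN and 0.188% ± 0.0245 in stem EFN. The share was 0.834% ± 0.0846 in pre1, 0.735% ± 0.0391 in pre2, 0.554% ± 0.0271 at the secretory stage and 0.593% ± 0.0838 in post. Every floral library was above every leaf and extrafloral library, and the lowest floral share, 0.501%, stood above the highest extrafloral one, 0.298%. A single gene, the methylesterase LOC100810565, made up 52.7% ± 8.53 of that sum in pre1, 58.5% ± 2.73 in pre2, 38.9% ± 1.38 at the secretory stage and 30.2% ± 1.35 in post, against 0.867% ± 0.348 in leaf. Without it the share of library values was 0.144% ± 0.009 in leaf, 0.389% ± 0.0274 in pre1, 0.305% ± 0.0057 in pre2, 0.339% ± 0.024 at the secretory stage and 0.413% ± 0.051 in post. The lowest floral share was then 0.300% and the highest extrafloral one 0.291%, and post was no longer below pre1. By mean value, 24 genes were highest in a floral stage, 6 in an extrafloral nectary and 3 in leaf. Over all rows of the table, 60.9% were highest in a floral stage. Leaf held the lowest mean for 16 of the 33, and for 30.6% of all rows. For 12 genes, all 3 libraries of the highest tissue lay above all libraries of the other tissues, 6 of them in post, 3 in pre1 and 1 each in pre2, the secretory stage and leaf. Over all rows 26.8% stood apart in this way. Tissue means spanned at least 10-fold for 17 genes and less than 2-fold for 4, against 26.0% and 16.3% of all rows.

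**Figure D1:**
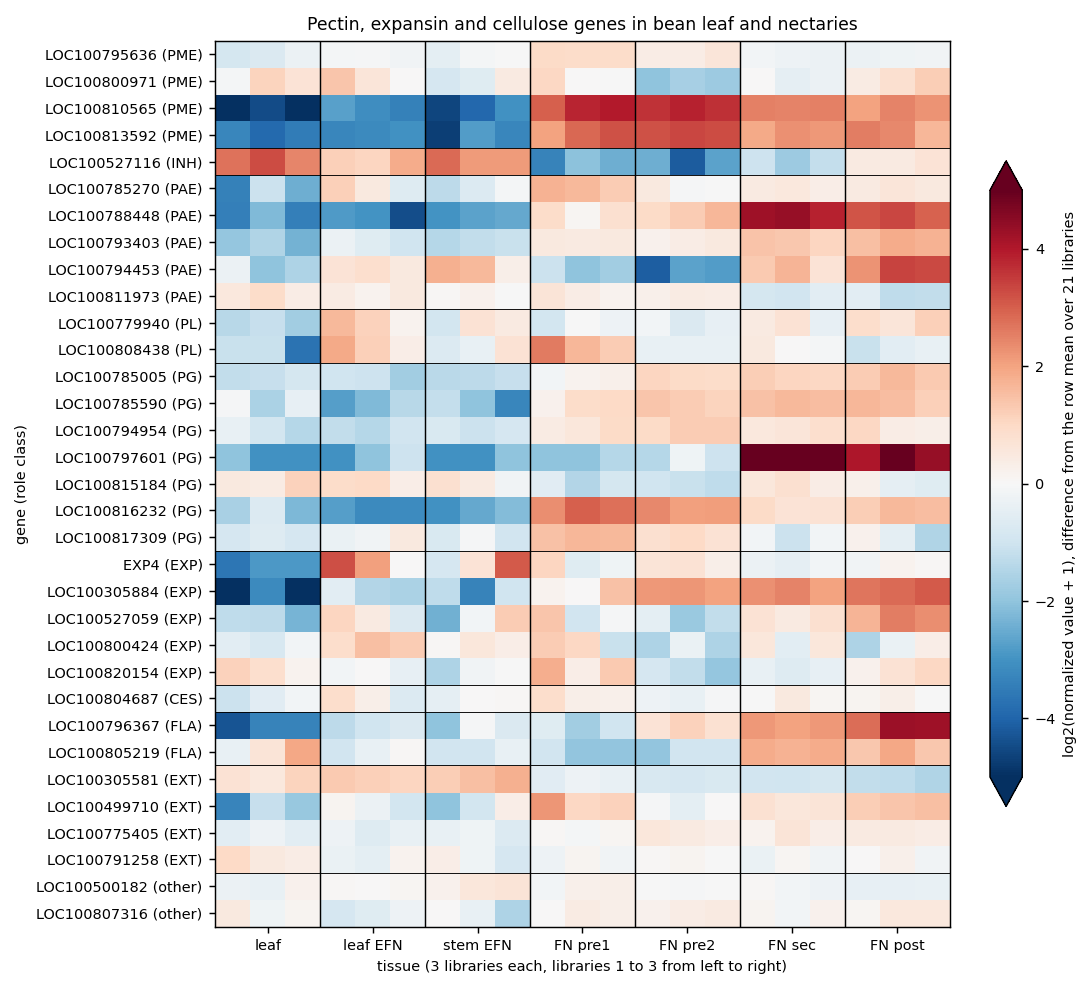
Each line of cells is 1 of the 33 genes and each column 1 of the 21 libraries; colour gives log2(normalized value + 1) minus that gene's mean over all libraries, and role classes are separated by lines (PME pectin methylesterase, INH inhibitor family, PAE pectin acetylesterase, PL pectate lyase, PG polygalacturonase, EXP expansin, CES cellulose synthase or synthase-like, FLA fasciclin-like, EXT extensin-named). A reader should see blue leaf columns and red floral columns for LOC100810565 and LOC100813592, and the reverse for LOC100527116. LOC100797601 and LOC100788448 are blue in leaf and extrafloral columns, with the strongest red from the secretory stage on.

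Pectin methylesterase LOC100810565, annotated in soybean as a putative pectinesterase/pectinesterase inhibitor 22, held 28, 62 and 33 in leaf, 211, 162 and 131 in leaf EFN and 57, 90 and 170 in stem EFN. Its floral values were 10906, 19725 and 21606 in pre1, 17130, 20152 and 17331 in pre2, 7910, 7856 and 8040 at the secretory stage, and 5605, 7658 and 6605 in post. No floral library came near a leaf or extrafloral one, and within the flower the secretory and post libraries all lay below those of pre1 and pre2. The log2 fold change of floral nectaries over leaf was 8.15 (SE 0.263, limma adjusted p = 1.49e-15), the largest of the 33. It was also higher in extrafloral nectaries than in leaf by 1.68 (SE 0.288, adjusted p = 0.000109), although stem EFN library 1 overlapped leaf. From pre2 to the secretory stage it fell by 1.19 (SE 0.333, adjusted p = 0.0151), but did not pass with pre2 library 2 left out (adjusted p = 0.0554).

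A second methylesterase, LOC100813592, whose first Arabidopsis match is pectin methylesterase 3, held 15 to 24 in leaf and 8 to 33 in the 6 extrafloral libraries. In floral nectaries it held 965, 1732 and 2127 in pre1, 2135, 2397 and 2291 in pre2, 891, 1164 and 1069 at the secretory stage, and 1414, 1265 and 742 in post. The floral libraries all stood far above the rest. No pre2 library overlapped another tissue, but the lowest, 2135, was close to the highest of pre1, 2127. The difference of pre2 from pre1 did not pass (0.57, SE 0.368, limma adjusted p = 0.286). Floral nectaries exceeded leaf by 6.12 (SE 0.291, adjusted p = 4.15e-13), while the difference of extrafloral nectaries from leaf was 0.17 (SE 0.318, adjusted p = 0.682). It fell by 1.13 from pre2 to the secretory stage (SE 0.368, adjusted p = 0.034), a call lost when any 1 pre2 or secretory library was left out (adjusted p = 0.0655 to 0.113).

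LOC100800971 shares that Arabidopsis match but had another course. It held 73, 173 and 128 in leaf, 206, 122 and 81 in leaf EFN and 44, 51 and 109 in stem EFN. Its floral values were 161, 81 and 77 in pre1, 19, 24 and 22 in pre2, 80, 58 and 65 at the secretory stage and 104, 137 and 186 in post. The stage pre2, where LOC100813592 was highest, was where this gene was lowest, and no pre2 library overlapped any other tissue. It fell by 2.16 from pre1 to pre2 (SE 0.393, adjusted p = 0.000844) and rose by 1.59 from pre2 to the secretory stage (SE 0.393, adjusted p = 0.00723). Its floral mean was lower than leaf by a log2 fold change of -0.80 (SE 0.31, adjusted p = 0.0264), which did not pass with leaf library 2 (adjusted p = 0.201) or leaf library 3 (0.0889) left out.

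The fourth methylesterase, LOC100795636 (pectin methylesterase 31), varied less. It held 115, 128 and 172 in leaf, 151 to 211 in the extrafloral libraries, 412, 396 and 404 in pre1, and 273, 276 and 326 in pre2. Values returned to 191, 179 and 172 at the secretory stage and 173, 181 and 187 in post, so only pre1 and pre2 stood above leaf and the extrafloral nectaries. The decline from pre2 to the secretory stage was -0.68 (SE 0.159, adjusted p = 0.00466). That from pre1 to pre2 was -0.47 (SE 0.159, adjusted p = 0.0429), and was lost without any 1 of the pre1 or secretory libraries, pre2 libraries 1 or 2, leaf EFN libraries 1 or 2, or post library 2 (adjusted p = 0.0514 to 0.143).

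The inhibitor family member LOC100527116 ran the other way. Its values were 464, 680 and 382 in leaf, 162, 148 and 256 in leaf EFN and 509, 312 and 314 in stem EFN. In floral nectaries they were 6, 16 and 12 in pre1, 12, 3 and 10 in pre2, 34, 19 and 30 at the secretory stage and 97, 97 and 113 in post. All leaf and extrafloral libraries lay above all floral ones, and the floral stages rose in 2 steps after pre2. Floral nectaries were lower than leaf by a log2 fold change of -4.43 (SE 0.317, adjusted p = 1.82e-10), the largest decrease of the 33. It rose by 1.75 from pre2 to the secretory stage (SE 0.401, adjusted p = 0.00419) and by 1.89 from there to post (SE 0.401, adjusted p = 0.00745), the latter call being lost without secretory library 2 (adjusted p = 0.0524). The family includes inhibitors of invertase as well as of methylesterase, and the annotation does not say which this gene is.

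Among pectin acetylesterases, LOC100788448 (pectin acetylesterase 10-like) held 5, 13 and 5 in leaf and 2 to 10 in the extrafloral libraries. Its floral values were 122, 67 and 110 in pre1, 125, 152 and 202 in pre2, 1209, 1308 and 922 at the secretory stage and 572, 648 and 496 in post. The secretory libraries stood above all others and the post libraries came next. It rose by 2.85 from pre2 to the secretory stage (SE 0.38, adjusted p = 2.86e-05), and its floral mean exceeded leaf by 5.31 (SE 0.301, adjusted p = 5.57e-12).

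LOC100794453 (pectin acetylesterase 9-like) held 55, 16 and 23 in leaf, 110, 122 and 96 in leaf EFN and 238, 215 and 85 in stem EFN. In the flower it held 32, 16 and 20 in pre1, 3, 10 and 9 in pre2, 171, 222 and 110 at the secretory stage and 326, 714 and 681 in post. All extrafloral libraries were above all leaf libraries, and within the flower the gene was near its floor before opening and highest after secretion. It rose by 4.41 from pre2 to the secretory stage (SE 0.483, adjusted p = 2.66e-06). The further rise to post was 1.74 (SE 0.483, adjusted p = 0.0388), a call lost when any 1 secretory library, post library 2 or post library 3 was left out (adjusted p = 0.0607 to 0.198). Extrafloral nectaries exceeded leaf by 2.24 (SE 0.418, adjusted p = 0.000235).

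The other acetylesterases moved less. LOC100793403 (pectin acetylesterase 12-like) held 87 to 159 in leaf, 223 to 371 in leaf EFN, 169 to 209 in stem EFN, 624 to 635 in pre1 and 518 to 629 in pre2. It then held 1227, 1137 and 963 at the secretory stage and 1270, 1617 and 1528 in post, and rose by 0.94 from pre2 to the secretory stage (SE 0.2, adjusted p = 0.00231). LOC100785270 (pectin acetylesterase 6) was highest in pre1, at 990, 904 and 699, against 27 to 139 in leaf and 284 to 440 in the later floral libraries. LOC100811973 held 62 to 120 in leaf, extrafloral and pre-secretory libraries and 25 to 43 in the secretory and post libraries, which did not overlap them. It fell by 1.13 from pre2 to the secretory stage (SE 0.228, adjusted p = 0.00152). Acetylesterases of the same family were therefore highest in pre1, at the secretory stage, in post and, for LOC100811973, in leaf.

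The polygalacturonase LOC100797601 is matched to Arabidopsis ADPG2, which acts there in organ shedding and fruit opening. It held 0 to 3 in every leaf, extrafloral and pre1 library, and 2, 6 and 3 in pre2. At the secretory stage it held 413, 252 and 586, and in post 132, 276 and 163. Only the secretory and post libraries were above 6, and those of the 2 stages overlapped each other. The rise from pre2 was 6.49 (SE 0.516, adjusted p = 5.92e-08). The values before it are so low that the fold depends on the pseudocount of 1. The deposited table also appears filtered on secretory library 1, so a gene listed at 0 there could not be seen, while this gene, near 0 before the flower opened, is in the table through the stages where it is high.

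LOC100816232, another polygalacturonase, held 233, 449 and 150 in leaf, 107, 78 and 80 in leaf EFN and 87, 123 and 162 in stem EFN. In the flower it held 3655, 5711 and 4917 in pre1, 3872, 3026 and 3117 in pre2, 1424, 1155 and 1201 at the secretory stage and 1701, 2258 and 2097 in post. Floral libraries stood above all others, with the secretory stage the lowest of them. The 2 polygalacturonases thus changed in opposite directions from pre2 to the secretory stage. LOC100816232 exceeded leaf by 3.31 in floral nectaries (SE 0.233, adjusted p = 1.42e-10) and was below leaf by -1.28 in extrafloral ones (SE 0.255, adjusted p = 0.000448), where stem EFN library 3 overlapped leaf. It fell by 1.40 from pre2 to the secretory stage (SE 0.295, adjusted p = 0.00217).

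LOC100785005, which shares the first Arabidopsis match of LOC100816232, held 61 to 111 in leaf and extrafloral libraries, 186, 235 and 247 in pre1, and 389 to 637 in all later floral libraries. Its step was between pre1 and pre2, at 0.88 (SE 0.187, adjusted p = 0.00268). LOC100785590 held 60 to 177 in leaf, 18 to 80 in extrafloral nectaries and 211 to 579 in floral ones, and LOC100794954 held 33 to 70 outside the flower and 111 to 222 inside it. LOC100817309 was highest in pre1, at 69, 78 and 76, and held 8 to 28 in the secretory and post libraries. LOC100815184 held 43 to 109 outside the flower, 17 to 33 in pre1 and pre2 and 73, 87 and 63 at the secretory stage, a rise of 1.70 (SE 0.313, adjusted p = 0.000715).

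Both pectate lyases had low values. LOC100779940 (probable pectate lyase 22-like) held 4, 5 and 3 in leaf, 40, 28 and 14 in leaf EFN and 6, 21 and 17 in stem EFN, with 6 to 29 in the flower. LOC100808438 (probable pectate lyase 12) held 5, 5 and 0 in leaf, 47, 28 and 15 in leaf EFN and 7, 9 and 20 in stem EFN. All extrafloral libraries were above all leaf libraries for both genes, with log2 fold changes of 1.96 (SE 0.39, adjusted p = 0.000443) and 2.47 (SE 0.504, adjusted p = 0.000561). In the flower LOC100808438 held 76, 40 and 30 in pre1 and 9, 9 and 9 in pre2. That decline of -2.20 (SE 0.583, adjusted p = 0.0122) was lost without pre1 library 1 (adjusted p = 0.0816).

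The expansin EXP4, named expansin-A1-like in soybean and matched to Arabidopsis expansin A15, held 14, 24 and 24 in leaf. It held 1693, 757 and 185 in leaf EFN and 100, 289 and 1514 in stem EFN, a wide spread within each. Floral values were 377, 119 and 154 in pre1, 279, 299 and 219 in pre2, 145, 133 and 164 at the secretory stage and 160, 205 and 190 in post. Every nectary library was above every leaf library, but the extrafloral libraries reached both above and below the floral ones. The secretory stage was lower than extrafloral nectaries by -1.67 (SE 0.636, adjusted p = 0.0249), which no longer passed in the absence of leaf EFN library 1 (adjusted p = 0.0635), stem EFN library 3 (0.0548), secretory library 1 (0.0607) or secretory library 2 (0.0714), or with only the compared libraries fitted (0.0804).

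LOC100305884 is matched to expansin-like A2, of a related family for which wall loosening has not been shown. It held 8, 30 and 3 in leaf, 195, 101 and 94 in leaf EFN and 115, 27 and 138 in stem EFN. Its floral values climbed from 320, 281 and 772 in pre1 through 1263, 1288 and 1125 in pre2 and 1372, 1564 and 1146 at the secretory stage to 1789, 2014 and 2365 in post. Post stood above all other tissues, and floral nectaries exceeded leaf by 6.71 (SE 0.469, adjusted p = 1.32e-10). The stages differed by limma's F test (adjusted p = 0.0147), but not in the absence of pre1 library 1 (adjusted p = 0.0757) or pre1 library 2 (0.0849). The rise from pre1 to pre2, 1.57 (SE 0.594, adjusted p = 0.0697), did not pass, and did pass without leaf library 2 (0.0271), leaf library 3 (0.0389), stem EFN library 2 (0.0361) or pre1 library 3 (0.0314).

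Of the remaining expansins, LOC100820154 (expansin-A4) held 102, 83 and 51 in leaf, 15 to 46 in extrafloral nectaries, 164, 58 and 115 in pre1 and 25, 19 and 11 in pre2. It held 29 to 35 at the secretory stage and 53, 75 and 95 in post. The drop from pre1 to pre2, -2.50 (SE 0.416, adjusted p = 0.000434), was the largest decrease between consecutive stages among the 33. LOC100527059, matched to expansin A13, held 394, 714 and 612 in post, above all other libraries, and 22 to 321 in the other nectary libraries. LOC100800424, with the same match, did not exceed 24 in any library.

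**Figure D2:**
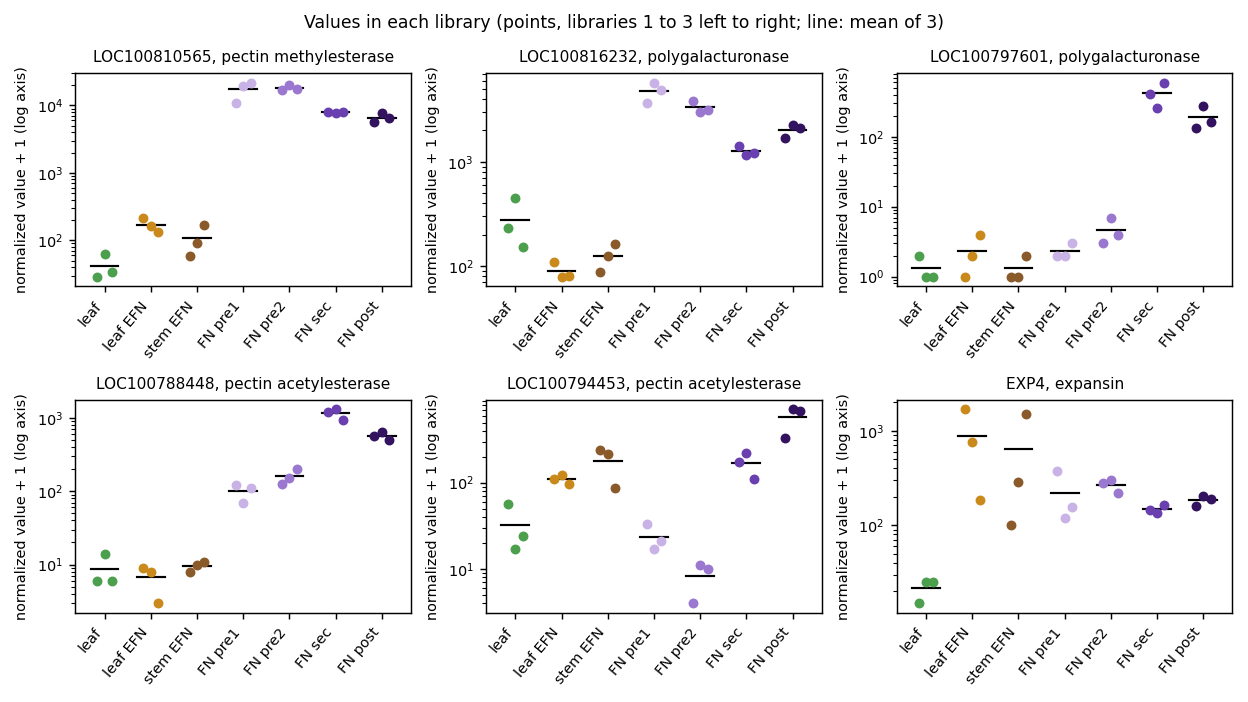
Normalized value + 1 on a log axis for 6 genes, with 1 point per library and a line at the mean of the 3 libraries of each tissue. LOC100810565 and LOC100816232 are high through the flower and lower from the secretory stage, LOC100797601 and LOC100788448 are highest at the secretory stage, LOC100794453 is highest in post, and EXP4 runs from 185 to 1693 within leaf EFN alone.

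The single cellulose synthase entry, LOC100804687, carries conflicting names. Soybean annotation calls it cellulose synthase-like D5, and its first Arabidopsis match is cellulose synthase A2. It held 693 to 1307 in leaf, 910 to 2690 in extrafloral nectaries and 1130 to 2631 in floral ones, with overlap between all 3. The floral excess over leaf of 0.73 (SE 0.237, adjusted p = 0.00964) was lost without leaf library 1 (adjusted p = 0.108) and under both other scalings of the libraries (0.0709 and 0.127).

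Fasciclin-like arabinogalactan protein 12 (LOC100796367), whose Arabidopsis relative is a marker of secondary walls, held 0, 1 and 1 in leaf, 7, 9 and 11 in leaf EFN and 4, 18 and 11 in stem EFN. Its floral values went from 12, 5 and 9 in pre1 through 31, 43 and 33 in pre2 and 89, 80 and 88 at the secretory stage to 136, 391 and 373 in post, with no overlap between consecutive stages. The rise from pre1 to pre2 was 1.98 (SE 0.466, adjusted p = 0.00582). The step from pre2 to the secretory stage, 1.25 (SE 0.466, adjusted p = 0.0633), did not pass, and did pass without stem EFN library 1 (0.0328), stem EFN library 2 (0.0465) or post library 1 (0.0395). The rise from the secretory stage to post was 1.65 (SE 0.466, adjusted p = 0.0424), lost without any 1 secretory or pre2 library, leaf EFN library 2, post library 2 or post library 3 (adjusted p = 0.0529 to 0.23). LOC100805219, with the same Arabidopsis match, held 2, 5 and 14 in leaf, 0 to 3 in extrafloral, pre1 and pre2 libraries, and 9 to 14 at the secretory stage and in post. The other xylem markers sought, LAC4, LAC17, XCP1, XCP2, VND7, CESA4, CESA8 and FLA11, matched no row by Arabidopsis locus. Soybean annotation, though, names LOC100805219 fasciclin-like arabinogalactan protein 11. CESA7 was matched only by LOC100804687, which lists it among several loci of the cellulose synthase family. Secondary wall tissue could be followed only through genes that are members here.

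Of the 4 genes with extensin in their name, 3 belong to the Ole e 1 family, secreted proteins first described as a pollen allergen, and 1 is described as a pollen-specific extensin-like protein. LOC100305581 held 267 to 398 in leaf, 391 to 459 in leaf EFN and 442 to 630 in stem EFN, against 64 to 156 in floral libraries, with no overlap between floral and other libraries. It was lower than leaf in floral nectaries by a log2 fold change of -1.65 (SE 0.132, adjusted p = 9.28e-10). LOC100499710 held 33, 150 and 90 in leaf, 83 to 426 in extrafloral nectaries, 1568, 694 and 751 in pre1, 321, 238 and 344 in pre2, 498 to 574 at the secretory stage and 798 to 947 in post. Floral nectaries exceeded leaf by 2.95 (SE 0.393, adjusted p = 1.3e-06). LOC100775405, which carries the pollen-specific name, held 46 to 64 in leaf and extrafloral libraries and 70 to 117 in floral ones. LOC100791258 was highest in leaf, at 177, 124 and 116, and held 49 to 110 elsewhere. The last pair of genes are proteins of unknown function whose descriptions mention pectinesterase (LOC100500182) and cellulose synthase (LOC100807316), and ran from 324 to 673 and from 215 to 905 over all libraries.

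The comparison of floral nectaries with leaf asked which wall genes differ between the flower's nectary and a vegetative organ, with the 4 stages weighted equally. Most pectin esterases and polygalacturonases, and 3 of 5 genes of the expansin class, were higher in the flower. The methylesterases LOC100810565 and LOC100813592 and the expansin-like gene LOC100305884 led, each above 6 on the log2 scale. Of the 33 genes, 22 were higher in floral nectaries and 6 were lower. Over all tested rows, 48.0% were higher and 27.8% lower, and 75.8% passed in either direction. Higher were 3 of 4 methylesterases, 4 of 5 acetylesterases, 6 of 7 polygalacturonases, both pectate lyases and 3 of 5 expansins. The 6 polygalacturonases include LOC100797601, whose means were 1.33 in pre1 and 3.67 in pre2 against 0.333 in leaf. It is listed through the later stages where it is high, since the table appears filtered on secretory library 1. Among the acetylesterases, LOC100794453 passed at 1.14 (SE 0.382, limma adjusted p = 0.0114), though its pre1 and pre2 means, 22.7 and 7.33, lay below leaf at 31.3. Its call was lost with libraries scaled to equal upper quartiles (0.0634) and without leaf library 2 (0.12) or 3 (0.0557). The expansin LOC100820154 was below leaf by -0.72 without passing (SE 0.329, limma adjusted p = 0.0546). It passed as lower with scaling by median ratios (0.0108), with equal upper quartiles (0.0071) and with only the compared libraries fitted (0.0408). Lower were the methylesterase LOC100800971, the inhibitor family gene LOC100527116, the acetylesterase LOC100811973, the polygalacturonase LOC100815184 and the Ole e 1 genes LOC100305581 and LOC100791258. The call of LOC100791258 was lost without leaf library 1 (limma adjusted p = 0.0757). A call on the mean of the 4 stages need not hold at each stage. LOC100817309, called higher, had means of 18.3 at the secretory stage and 17.7 in post, against 13.7 in leaf. LOC100815184, called lower, had a mean of 74.3 at the secretory stage against 81.0 in leaf. For 15 genes every floral library was above every leaf library and for 3 below, against 29.8% and 15.7% of all rows. The median log2 fold change was 1.501 over the 33 and 0.375 over all rows, and the all-row median was 0.105 with the libraries scaled by median ratios and 0.0353 with equal upper quartiles. Under these scalings the share of all calls that were higher was 53.8% and 51.1%, against 63.4%.

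The same leaf libraries served the comparison of leaf with extrafloral nectaries, with leaf EFN and stem EFN weighted equally. Both pectate lyases and the expansins EXP4 and LOC100305884 were higher than leaf. EXP4 stood above leaf by 4.47 (SE 0.636, adjusted p = 1.52e-05), LOC100305884 by 3.23 (SE 0.514, adjusted p = 4.98e-05) and LOC100796367 by 2.68 (SE 0.403, adjusted p = 2.83e-05). Of the 33 genes, 15 were higher and 7 lower, while over all tested rows 28.9% were higher and 18.5% lower. Higher were 4 of 5 expansins, both pectate lyases, 3 of 5 acetylesterases and 2 of 4 methylesterases. Of these methylesterases, LOC100795636 (0.477, SE 0.138, limma adjusted p = 0.00824) overlapped leaf. Its call was lost without leaf library 1 (0.0706) and with only the compared libraries fitted (0.0665). Among the expansins, LOC100527059 (1.55, SE 0.603, adjusted p = 0.0416) and LOC100800424 (1.26, SE 0.501, adjusted p = 0.0458) did not pass with either other scaling of the libraries (adjusted p = 0.0509 to 0.0615), which leaves 2 of 5. The call of LOC100527059 was also lost without any 1 leaf library, leaf EFN libraries 1 or 2 or stem EFN libraries 2 or 3 (0.0611 to 0.172). That of LOC100800424 was lost without any 1 leaf library, leaf EFN libraries 2 or 3, stem EFN libraries 2 or 3, pre2 libraries 1 or 3, secretory libraries 1 or 3 or post library 2 (0.0503 to 0.142). The fifth expansin, LOC100820154, was lower than leaf by -1.10 (SE 0.36, limma adjusted p = 0.0172), with no overlap. Its call was lost without leaf library 1 (0.0989) or leaf library 2 (0.0581). Of 7 polygalacturonases 0 were higher and 2 were lower, LOC100816232 and LOC100785590, the latter by -1.45 (SE 0.376, adjusted p = 0.00384, and 0.0598 with only the compared libraries fitted). For 7 genes every extrafloral library was above every leaf library and for 2 below, against 18.3% and 11.5% of all rows. The median was 0.42 over the 33 and 0.13 over all rows, and the share of all calls that were higher fell from 61.1% to 50.8% with scaling by median ratios. Of the 22 calls, 12 held under every alternative tried, and the number lower was 4 without leaf library 1.

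**Figure D3:**
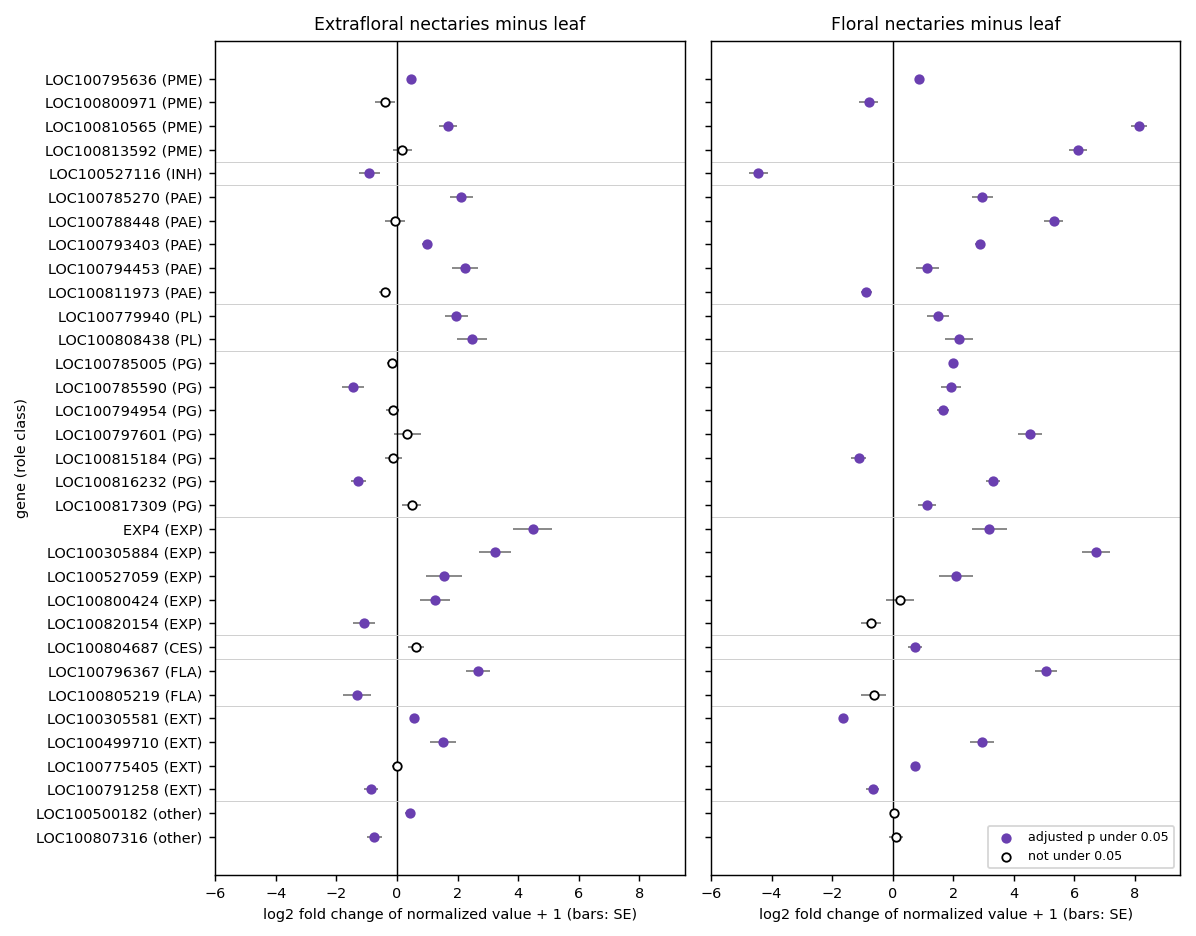
Log2 fold change of normalized value + 1 (points) with its SE (bars) for the 33 genes, in extrafloral nectaries minus leaf on the left and floral nectaries minus leaf on the right; both sides use the same 3 leaf libraries. Filled points passed at an adjusted p under 0.05: 22 on the left and 28 on the right, with LOC100810565 at 1.68 and 8.15 and LOC100527116 at -0.93 and -4.43.

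The secretory floral nectary was set against the extrafloral nectaries, both of which release nectar. Of 7 polygalacturonases 5 were higher in the flower and 0 lower, LOC100797601 by 7.96 (SE 0.447, adjusted p = 1.07e-11), LOC100785590 by 3.69 (SE 0.376, adjusted p = 4.68e-08) and LOC100816232 by 3.60 (SE 0.255, adjusted p = 2.8e-10). The table appears filtered on secretory library 1, so a gene at 0 there could not be counted as lower. LOC100797601, at 0 to 3 in extrafloral libraries, is listed through the floral stages where it is high. LOC100810565 was higher by 5.97 (SE 0.288, adjusted p = 1.28e-12) and LOC100788448 by 7.23 (SE 0.329, adjusted p = 6.01e-13). In all, 15 genes were higher and 5 lower, against 43.4% and 29.1% of all tested rows. The 5 lower were LOC100527116 at -3.22 (SE 0.347, adjusted p = 9.64e-08), LOC100305581 at -2.29 (SE 0.145, adjusted p = 5.64e-11), EXP4, LOC100811973 and LOC100500182. The number lower was 3 without secretory library 2. Both pectate lyases, 3 of 5 expansins and LOC100804687 did not pass. Over all rows, 59.8% of calls were higher as deposited, 54.3% with scaling by median ratios and 49.5% with equal upper quartiles.

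Through the floral stages, 23 of the 33 genes differed by limma's F test, against 57.0% of all tested rows. Smallest adjusted p-values belonged to LOC100797601 (9e-10), LOC100794453 (1.9e-08), LOC100796367 (5.01e-07), LOC100788448 (7.35e-07) and LOC100527116 (1.58e-06). The first of these, LOC100797601, is in the table through the stages where it is high. From pre1 to pre2, 2 genes rose and 7 fell, against 12.4% and 7.05% of all rows. The 2 that rose were LOC100785005 and LOC100796367, and the 7 that fell were the methylesterases LOC100795636 and LOC100800971, the acetylesterases LOC100785270 and LOC100794453, LOC100808438, LOC100820154 and LOC100499710. Without pre1 library 1 the number that fell was 2, and without pre2 library 1 or pre2 library 2 it was 4. For LOC100785270 the decline was -1.40 (SE 0.45, adjusted p = 0.0356), lost without pre1 libraries 1 or 2 or pre2 libraries 2 or 3 (adjusted p = 0.086 to 0.127).

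From pre2 to the secretory stage 8 genes rose and 6 fell, against 12.6% and 8.77% of all rows, and 3 of the 5 acetylesterases rose. Markers of other cell types moved in the same step. The carpel genes matching AG and SHP1 summed to 4281 to 4607 in pre2 and 2020 to 2519 at the secretory stage, the nectary list to 211992 to 227244 and 82743 to 126513, and LTP1 held 2078 to 3075 and 2994 to 3841. Their part in the members' changes was not tested. The 8 were the acetylesterases LOC100788448, LOC100793403 and LOC100794453, the polygalacturonases LOC100797601 and LOC100815184, LOC100800971, LOC100527116 and LOC100805219. As the table appears filtered on secretory library 1, LOC100797601 is listed through the secretory and post stages, where it is high. The 6 that fell were 3 of 4 methylesterases, the polygalacturonases LOC100816232 and LOC100817309, and LOC100811973. Without pre2 library 2 the number that fell was 3. For 24 genes the libraries of the 2 stages did not overlap, 15 higher and 9 lower at the secretory stage, while over all rows 26.6% were higher and 26.9% lower without overlap. From the secretory stage to post 3 genes rose, LOC100527116, LOC100794453 and LOC100796367, and 0 fell, against 2.63% and 3.1% of all rows, or 5.73% in either direction. In post LTP1 held 5034 to 6668, the carpel genes summed to 1512 to 2384, and the post libraries differed in nectary genes: the CWINV4 match LOC100777418 held 23447, 10281 and 3955 and the SWEET9 match LOC100810946 held 81854, 43437 and 27583. Library 1, highest for both, was the lowest post library for 19 of the 33 genes against 36.4% of all rows, among them LOC100794453 and LOC100796367. The part of these differences was not tested. Each of those 3 calls was lost when 1 library was left out, the count reaching 0 without secretory library 2 and 1 without secretory libraries 1 or 3 or post libraries 2 or 3, while without post library 1 the number that fell was 1. At an unadjusted limma p under 0.05, 7 genes rose and 4 fell in that step, and the authors' deposited table calls 9 of the 33 different between these stages, in either direction, against 9.86% of all rows.

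**Figure D4:**
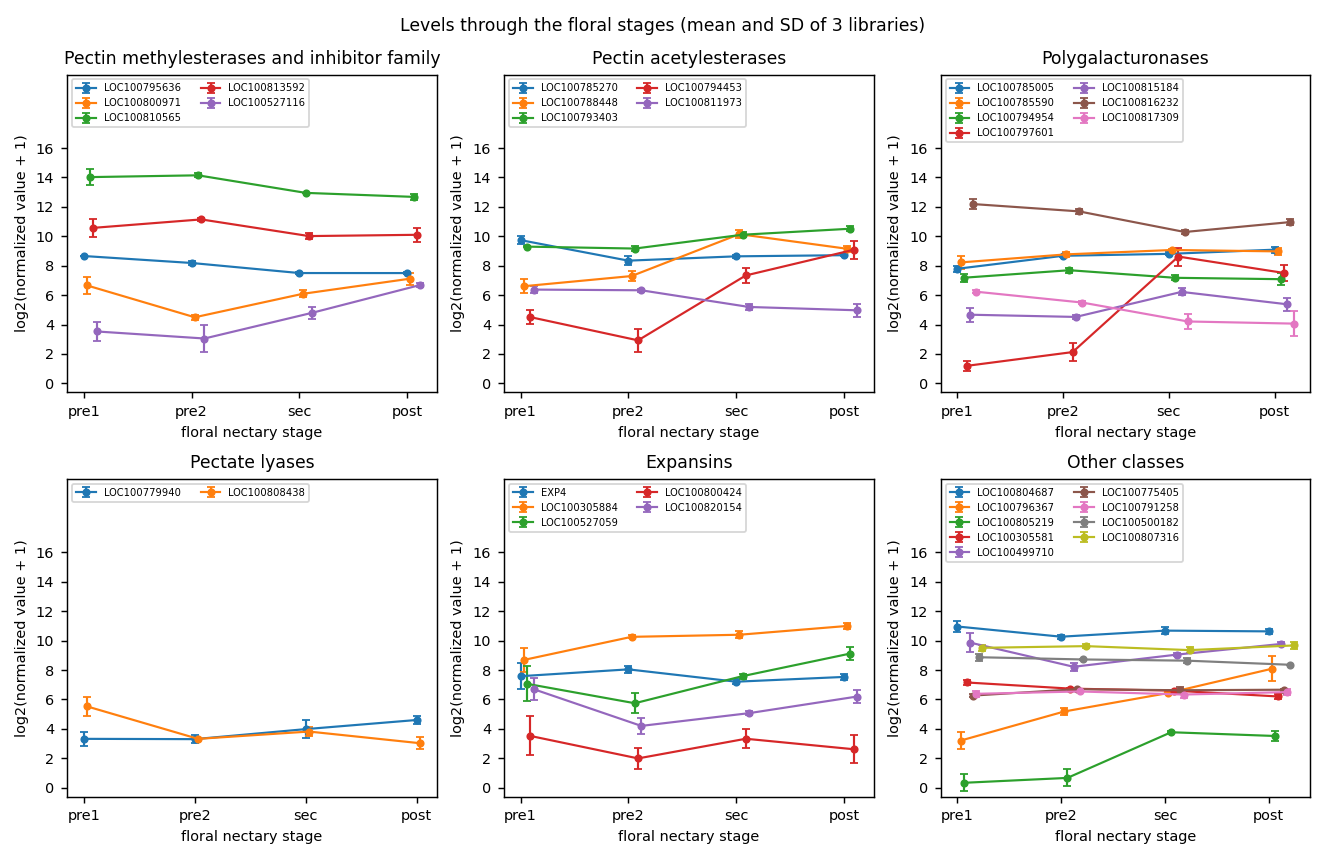
Mean and SD of log2(normalized value + 1) over 3 libraries at the 4 floral stages, 1 line per gene, in 6 panels by role class. LOC100810565, LOC100813592 and LOC100816232 are lower at the secretory stage than in pre2, LOC100788448, LOC100794453 and LOC100797601 are higher, and the mean of LOC100796367 goes up with each stage, by 1.98, 1.25 and 1.65, of which the middle step did not pass.

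Leaf EFN and stem EFN were compared to ask whether the 2 positions differ. With limma 0 of the 33 were higher in stem EFN and 0 lower, against 2.8% and 2.57% of all tested rows and 5.37% in either direction. At an unadjusted p under 0.05, 2 were higher and 5 lower in stem EFN, and the authors' deposited table also calls 0 of the 33, against 2.06% of all rows. Without stem EFN library 3 the number lower was 2, LOC100810565 (adjusted p = 0.023) and LOC100800971 (0.0342). LOC100793403 was lower without leaf EFN library 3 (adjusted p = 0.0254), leaf library 2 (0.0446) or leaf library 3 (0.0474). The largest differences not passing were -1.24 for LOC100808438 (SE 0.583, adjusted p = 0.25) and 1.00 for LOC100527116 (SE 0.401, adjusted p = 0.17).

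The libraries within each extrafloral tissue were spread unequally for these genes. In leaf EFN, library 1 was at least 2-fold above library 3, and in stem EFN library 3 at least 2-fold above library 1, for 7 genes, LOC100800971, LOC100785270, LOC100779940, LOC100808438, EXP4, LOC100527059 and LOC100499710. Over all rows, 4.84% did so. For LOC100527059, leaf EFN held 252, 165 and 72 and stem EFN 22, 109 and 289. LOC100785270 held 665, 412 and 187 in leaf EFN and 119, 181 and 273 in stem EFN. In the mesophyll markers, RBCS1A held 25660, 13522 and 5680 in leaf EFN and 16818, 16146 and 25109 in stem EFN, in the same order in leaf EFN and with library 3 highest in stem EFN. Whether the makeup of the dissected pieces has a part in this spread was not tested.

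**Figure D5:**
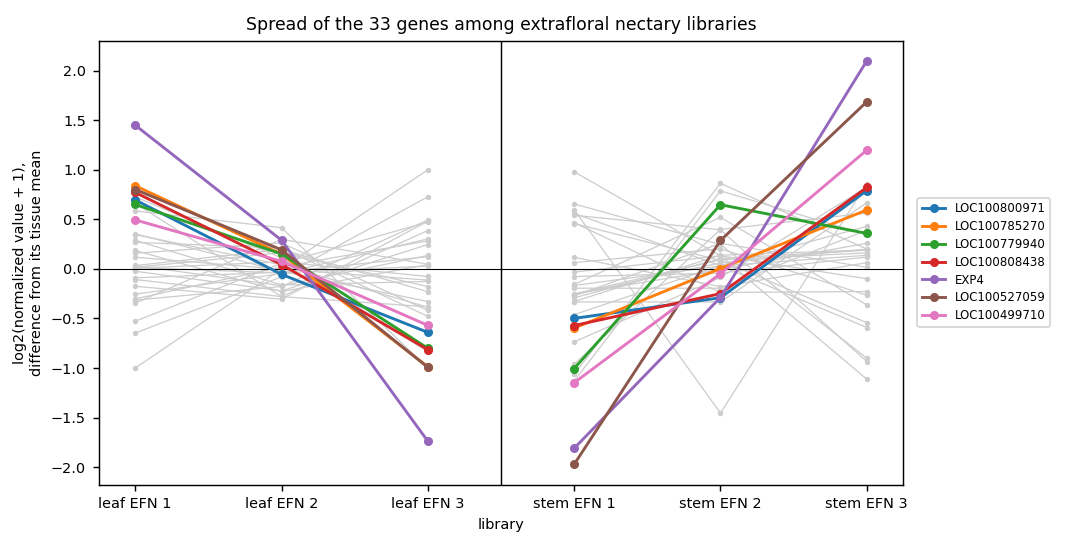
Log2(normalized value + 1) in each of the 6 extrafloral libraries minus the mean of its tissue, 1 line per gene. The 7 coloured genes are at least 2-fold higher in leaf EFN library 1 than in library 3 and at least 2-fold higher in stem EFN library 3 than in library 1, and the other genes are grey.

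A further list of 50 wall genes outside the rule (xyloglucan endotransglucosylases, cellulases, xylosidases, laccases and the like) gave a comparison. In floral nectaries over leaf, 34 of the 50 were higher and 5 lower, against 48.0% and 27.8% of all tested rows. Their median log2 fold change was 1.503, against 0.375 over all rows. In extrafloral nectaries over leaf, 22 were higher and 2 lower, against 28.9% and 18.5%. From pre2 to the secretory stage 14 rose and 3 fell, against 12.6% and 8.77%. From there to post 0 rose and 4 fell, against 2.63% and 3.1%. Between leaf EFN and stem EFN 0 passed, against 5.37%. The largest increases over leaf were those of xyloglucan-modifying enzymes, LOC100778993 by 8.38 (adjusted p = 4.06e-11) and LOC100807063 by 6.98 (adjusted p = 3.04e-11) in floral nectaries. LOC100807063 held 459, 83 and 95 in leaf and 8717 to 34850 in floral libraries, which did not overlap.

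The authors' own calls, deposited without direction or size, marked 13 of the 33 as different between pre2 and the secretory stage, against 29.9% of all rows. Between pre1 and pre2 the authors' deposited table marks 7, against 18.9%, and it marks 16 and 15 between the secretory stage and stem EFN or leaf EFN, against 50.0% and 53.8%. The deposited table marks EXP4, LOC100804687, LOC100499710, LOC100527059 and LOC100794954 between pre2 and the secretory stage, which limma did not call, with adjusted p of 0.459, 0.363, 0.259, 0.0683 and 0.166. LOC100527059 did pass without stem EFN library 1 (adjusted p = 0.0204) or 3 (0.0314). When only the libraries of the 2 stages entered the limma fit, all 5 passed, at adjusted p of 0.000968, 0.0294, 0.000789, 0.000374 and 0.0135. In the other direction, limma called LOC100800971, LOC100527116, LOC100811973, LOC100815184, LOC100817309 and LOC100805219 between these stages, which the deposited table does not mark.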

How the data were processed

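The deposited table holds a score per library, marked UQN mapped counts per the file headers and read here as upper-quartile normalized read counts. The values are whole numbers. Their upper quartiles above 0 ran from 362 to 430.5 in leaf and extrafloral libraries and from 451 to 494 in floral ones, without overlap. The submitters' processing notes name DESeq with neither version nor role, and the mapper of the reads is not given in the sources used here. Calls deposited by the authors were copied as given. Of the other columns, 14 were not used. Only secretory library 1 has no 0, its lowest value being 1, so the table appears filtered on that library.

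Values entered limma 3.58.1 (R 4.3.3) as log2(value + 1), with a mean per tissue, 14 residual degrees of freedom, an intensity trend and two-sided tests. Rows with a mean under 1, 8 in number, were not tested. The planned count model was not used, because values are normalized. The procedure was tested on simulated data.

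Members, gene lists and tests were chosen with earlier results of these data known. Genes named in a comparison are the 10 largest increases and decreases among those called with a group mean of at least 50, and the highest gene of each role. Values of other members are also given, chosen after they were seen. Pectate lyases were separated from polygalacturonases by soybean description, and 2 genes known by a domain of unknown function were set apart, both after their descriptions were seen. Other wall genes were taken by description, and cell type markers by Arabidopsis locus. Alternatives were a pseudocount of 10, other filters and scalings, a replicate block, fits to the compared libraries, and leaving out libraries. Python 3.11.15 with pandas 2.3.3 made the tables.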

Additional observations from a re-analysis of the deposited data

How the results depend on the processing

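Across 129 results on genes named by the rule, which do not cover every gene with a printed value, 3741 values under the alternatives tried were obtained. Of these 3612 kept their side of the threshold, 99 no longer passed, 30 newly passed, and 0 changed direction where either fit passed. A change of direction with no call in either fit was counted within the 3612, and F tests have no direction. LOC100500182 is not among the 129 results for floral nectaries over leaf. It reversed there with equal upper quartiles, though it was not called as deposited (limma adjusted p = 0.0293 against 0.797). Calls that held under every alternative were 12 of 22 for extrafloral nectaries over leaf, 24 of 28 for floral nectaries over leaf, 4 of 9 from pre1 to pre2, 11 of 14 from pre2 to the secretory stage, 0 of 3 from there to post, 17 of 20 for the secretory stage over extrafloral nectaries and 19 of 23 in the F test.

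Counts in the rest of this section are of the 33 genes only, and the share of all rows under the same setting is not given. They show how far the calls moved and do not set the 33 genes against the table. With only the compared libraries fitted, 4 genes were lower in extrafloral nectaries than in leaf. In that fit 14 rose from pre2 to the secretory stage, and 8 rose and 1 fell from there to post. EXP4 and LOC100794954 newly fell from pre2 to the secretory stage, beside the 6 called in the main fit. A pseudocount of 10 gave 1 gene higher in stem EFN than in leaf EFN and 2 falling from the secretory stage to post. Without stem EFN libraries 2 and 3, which leaves 1 stem EFN library that is assumed to vary like the other tissues, 3 genes were lower in stem EFN than in leaf EFN and 3 lower at the secretory stage than in extrafloral nectaries, and 10 were higher and 5 lower in extrafloral nectaries than in leaf. The cause was not tested, beyond the fewer libraries in such fits.

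Leaving out each library in turn gave 10 to 16 higher and 4 to 7 lower in extrafloral nectaries over leaf, 21 to 22 and 5 to 7 in floral nectaries over leaf, and 0 to 0 higher and 0 to 2 lower in stem EFN against leaf EFN. It gave 2 to 3 rising and 2 to 8 falling from pre1 to pre2, 8 to 10 and 3 to 6 from pre2 to the secretory stage, 0 to 3 and 0 to 1 from there to post, 14 to 15 and 3 to 5 at the secretory stage over extrafloral nectaries, and 20 to 25 in the F test.

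Replicate numbers did not pair the libraries: in 0 of 21 pairs of tissues were all same-number correlations over 0.1, and they ran from -0.275 to 0.208. With the replicate block, the counts higher and lower were 13 and 7 for extrafloral nectaries over leaf, 22 and 6 for floral nectaries over leaf, 2 and 7 from pre1 to pre2, 9 and 6 from pre2 to the secretory stage, 2 and 0 from there to post, 15 and 5 at the secretory stage over extrafloral nectaries, 0 and 0 between extrafloral positions, and 22 in the F test. Depth in reads is unknown, and values of a few units limit LOC100797601 before flowering, the pectate lyases and LOC100805219.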
